A study of Mus musculus with 6 samples.

Results

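The 6 genes described here are the Id protein genes Id1, Id2 and Id3 and the E protein genes Tcf3, Tcf4 and Tcf12. They were chosen by name from a table of 27763 gene rows, with earlier results of these data known. All 6 were listed. RNA carrying poly(A) had been sequenced from natural killer (NK) cells of the spleen of wild type C57BL/6 mice aged 6 weeks. The libraries form 2 groups of 3, cNK and DN NK. The labels give both groups the same strain, tissue, age and genotype, name no treatment, and explain neither group name, nor by which surface markers the cells were separated. The series title concerns an immature NK subset of the spleen and its maturation through T-bet. Whether each library was made from its own mouse is not given, and p-values therefore reflect the variation among these libraries, which may be technical.

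E proteins are transcription factors of the basic helix-loop-helix class that bind short DNA elements called E-boxes as dimers. Tcf3 encodes E2A, with the splice forms E12 and E47, Tcf12 encodes HEB, and Tcf4 encodes E2-2. These are not the HMG-box factors of the Wnt pathway that have been given similar names. Id proteins have the helix-loop-helix but no basic region, so they pair with E proteins and keep them off DNA. In lymphocytes E proteins drive B and T cell programmes, E2-2 is the defining factor of plasmacytoid dendritic cells, and Id2 is required for NK cells and innate lymphoid cells (ILCs). Id3 is known in B cells, T cells and some ILCs.

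Since E proteins act through E-boxes, the promoters of the members were read for the letters CANNTG, which are the same on both strands. RefSeq windows of 250 bases before a start on GRCm38.p6 were held for 4 of the 6 genes, with 3 windows for Tcf12; Id1 and Tcf4 were not among them. Of 32851 such windows over all genes, 66.2% held at least 1 match, and 44.8% held the narrower CAGNTG, whose matches are a subset of the first. Id2 held 1 match, 196 bases before its start, Tcf3 held 1 at 54 bases, and 2 of the 3 Tcf12 windows held 1 each, at 240 and 149 bases. The Id3 window and the third Tcf12 window held none, and annotated exons cover all 250 bases of each. The stretches that no GENCODE M21 exon covers are shown for Id2, which fell in DN NK, and for Tcf3 and Tcf12, which moved in opposite directions. Each lies on the minus strand and is written 5′ to 3′ with the E-box in capitals. The Id2 stretch (chr12:25096254-25096342) lies in an intron of a longer Id2 transcript, and the Tcf3 (chr10:80433648-80433885) and first Tcf12 (chr9:72111872-72112069) stretches lie upstream of the gene.
Id2: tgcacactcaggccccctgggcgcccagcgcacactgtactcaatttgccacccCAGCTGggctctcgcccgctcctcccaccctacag
Tcf3: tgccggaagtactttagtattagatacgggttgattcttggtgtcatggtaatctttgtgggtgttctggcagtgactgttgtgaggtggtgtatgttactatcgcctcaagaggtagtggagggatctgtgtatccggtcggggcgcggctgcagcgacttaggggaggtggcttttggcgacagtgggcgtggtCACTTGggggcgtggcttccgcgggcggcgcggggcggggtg
Tcf12: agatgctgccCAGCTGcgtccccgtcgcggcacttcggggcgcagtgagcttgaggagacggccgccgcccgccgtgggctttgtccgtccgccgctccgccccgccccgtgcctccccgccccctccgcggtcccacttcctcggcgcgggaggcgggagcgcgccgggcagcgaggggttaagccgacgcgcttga
The Id2 and Tcf12 matches are both CAGCTG, a form of CAGNTG, whereas the Tcf3 match is CACTTG, which is not. The match in the second Tcf12 window, CAAGTG, is the Tcf3 hexamer read on the other strand. These are matches of letters and say nothing of binding in these cells.

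The libraries held 79798234 to 89526647 estimated counts each. Levels are given in FPKM, fragments scaled to gene length and depth. Tests are from edgeR's quasi-likelihood fit of DN NK over cNK, with p-values adjusted by Benjamini-Hochberg across all tested rows. Rows needed at least 1 FPKM in at least 3 libraries, which 11690 rows met. Of these, 61.7% passed an adjusted p of 0.05, 30.8% higher and 30.9% lower in DN NK, 12.6% passed with at least a 2-fold change, and 7.9% did so upward. In 70.3% of tested rows the FPKM values of the groups did not overlap. A pass or a gap between groups was therefore common in this table, and the sizes carry more than the calls. The 10 NK markers read for the labels, such as Ncr1 and Klrb1c, were present in every library, with summed levels of 4890 to 5063 FPKM in cNK and 2653 to 3009 in DN NK, where 9 of the 10 were lower.

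Among the 6 genes, Id3 and Tcf12 were higher in DN NK, Id2 and Tcf3 were lower, and Tcf4 and Id1 did not pass. Id1 lay under the filter in both groups, and Id3 met the filter only through DN NK. In the fit without a filter, where 31.3% of 27763 rows passed, the same 4 genes passed in the same directions.

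**Figure D1:**
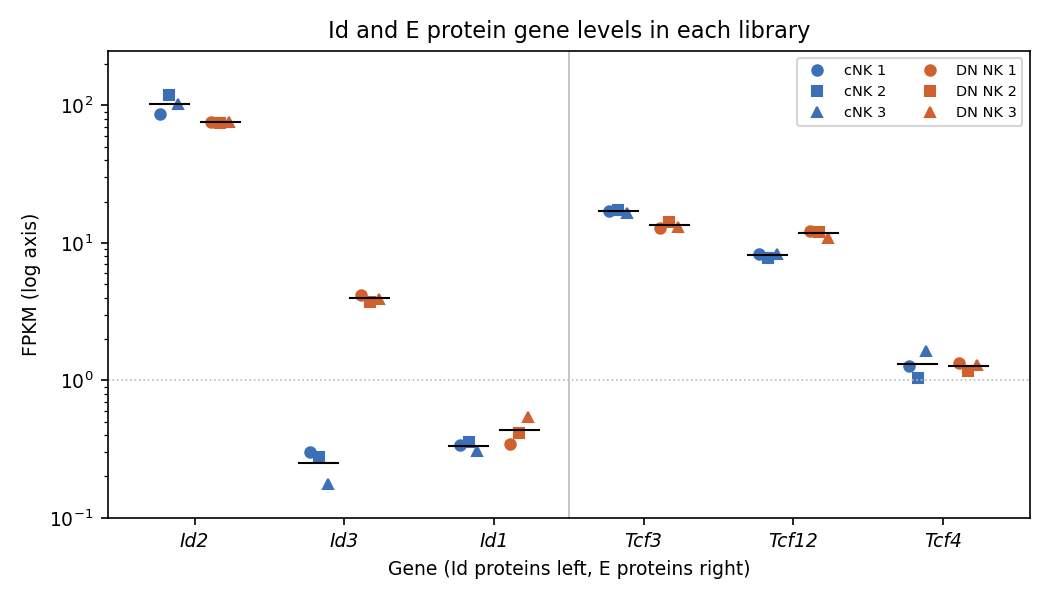
Level of each Id and E protein gene in each of the 6 libraries, in FPKM on a log axis; symbols mark replicates 1 to 3, black lines the group means and the dotted line the filter at 1 FPKM. Id3 shows the widest gap, from 0.178 to 0.302 FPKM in cNK to between 3.73 and 4.19 in DN NK, while Tcf4 and Id1 overlap between the groups.

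Id2, the Id gene that NK cells depend on, was by far the most abundant of the 6 in both groups. Its levels were 87.0, 119 and 103 FPKM in cNK 1, 2 and 3, and 76.0, 74.0 and 75.7 FPKM in DN NK 1, 2 and 3. Every DN NK library lay below every cNK library, and the DN NK libraries lay close together while the cNK libraries were spread. The means were 103 ± 15.8 and 75.2 ± 1.06 FPKM (SD, n = 3 each), and the log2 fold change was -0.39 (SE 0.097, adjusted p = 0.0103), a 1.31-fold fall. Even after this fall Id2 stood above 94.9% of tested rows in DN NK, against 96.0% in cNK.

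Id3, the Id gene best known from B and T cells, was nearly silent in cNK and expressed at a low level in DN NK. It stood at 0.302, 0.277 and 0.178 FPKM in cNK 1, 2 and 3, which rests on about 15.2, 13.6 and 8.24 read pairs. In DN NK 1, 2 and 3 it stood at 4.19, 3.73 and 3.91 FPKM, on about 189, 166 and 173 read pairs. The groups were far apart, with means of 0.252 ± 0.0658 and 3.94 ± 0.235 FPKM, and the cNK libraries varied more in proportion to their mean than the DN NK libraries. The log2 fold change was 3.99 (SE 0.22, adjusted p = 2.14e-06), a 15.9-fold rise in 3 of 3 libraries. Only 1.11% of tested rows had a log2 fold change at or above it. The ratio of summed read pairs, scaled to library totals, was 15.3 with an exact 95% binomial interval of 11.0 to 22.0, which covers counting error only. In DN NK the level of Id3 exceeded that of 35.8% of tested rows, so its rise ended at a modest level.

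Id1, an Id gene known as a target of bone morphogenetic protein (BMP) signalling, was barely detected. It was at 0.342, 0.358 and 0.306 FPKM in cNK and at 0.342, 0.417 and 0.543 FPKM in DN NK, on 9.57 to 16.0 read pairs a library. The groups overlapped, and without a filter the log2 fold change was 0.34 (SE 0.37, adjusted p = 0.527). That SE is about as large as the change of Id2, so a change of such size was not detectable for Id1 at this depth. Id4, the fourth gene of the family, was listed at 0 in 5 of the 6 libraries and held about 2.13 read pairs in DN NK 2.

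Tcf3, which encodes E2A, was the E protein gene with the highest FPKM in both groups, and it was lower in DN NK. It stood at 17.1, 17.5 and 16.6 FPKM in cNK and at 12.9, 14.3 and 13.1 FPKM in DN NK. The groups did not overlap, but the step was small, 1.22-fold downward (log2 fold change -0.28, SE 0.057, adjusted p = 0.00261). The means were 17.0 ± 0.450 and 13.4 ± 0.741 FPKM.

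Tcf12, which encodes HEB, moved the other way. Its levels were 8.34, 7.78 and 8.24 FPKM in cNK and 12.2, 11.9 and 10.9 FPKM in DN NK. All DN NK libraries were above all cNK libraries, with means of 11.7 ± 0.681 against 8.12 ± 0.299 FPKM, a 1.51-fold rise (log2 fold change 0.59, SE 0.062, adjusted p = 7.00e-05).

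Tcf4, the E2-2 gene, was low in both groups and showed no change past the test. The values were 1.27, 1.04 and 1.63 FPKM in cNK and 1.33, 1.18 and 1.30 FPKM in DN NK, with all DN NK libraries inside the cNK range. The log2 fold change was 0.014 (SE 0.16, adjusted p = 0.947), and its sign turned in 7 of 15 alternatives. Its low FPKM did not come from few reads, since 754 to 1150 read pairs a library fell on this long gene.

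**Figure D2:**
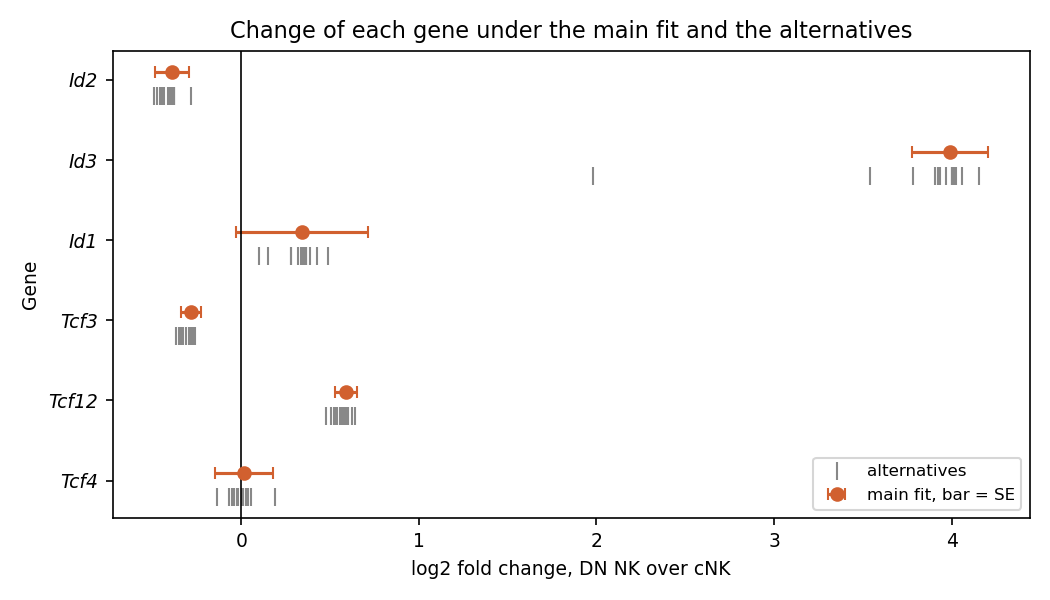
Log2 fold change of each gene, DN NK over cNK, in the reported fit (circles with SE) and in each alternative that could test it (grey ticks). Id3 and Tcf12 stay above 0 and Id2 and Tcf3 below 0 throughout, and the low Id3 tick at 1.98 is the fit on log2(FPKM + 1), which compresses the changes of low genes.

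In deposited FPKM the sum of the E protein genes was alike in the groups, while its make-up differed. The 3 E protein genes summed to 26.5 ± 0.218 FPKM in cNK and 26.4 ± 1.01 FPKM in DN NK. Tcf3 made up 64.4% ± 1.91 of that sum in cNK and 50.8% ± 1.88 in DN NK, and Tcf12 30.7% ± 0.922 and 44.4% ± 1.69. Tcf3 exceeded Tcf12 by ratios of 2.05, 2.25 and 2.01 in the cNK libraries but only 1.05, 1.19 and 1.20 in the DN NK libraries. No DN NK ratio reached a cNK ratio. These sums and ratios over the chosen genes are descriptions and were not tested.

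The Id side fell in sum and gained Id3. The 3 Id genes summed to 104 ± 15.8 FPKM in cNK and 79.6 ± 1.27 FPKM in DN NK. Id3 contributed 0.249% ± 0.0881 of this in cNK and 4.95% ± 0.229 in DN NK, so Id2 still made up 94.4 to 94.7% of the Id sum in each DN NK library. Id2 exceeded Id3 by 288, 429 and 581 times in cNK 1, 2 and 3, and by 18.1, 19.9 and 19.4 times in DN NK 1, 2 and 3. The sum of Id over the sum of E levels was 3.28, 4.54 and 3.93 in cNK and 3.05, 2.86 and 3.16 in DN NK, lower in each DN NK library than in any cNK library. Transcript sums of this kind do not give protein amounts.

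The comparison between genes depends on the length a level is divided by. Over 4283 rows with more than 3 transcripts and more than 2000 estimated counts, the length behind the deposited FPKM came within 2% of the joined length of all annotated exons in 95.3%, and within 2% of the longest listed transcript in 1.56%. The joined exons span 15529 bases for Tcf12 and 27382 for Tcf4, against 6299 and 8577 bases for their longest listed transcripts. For Tcf3 these lengths are 4039 and 2950 bases, and for Id2 2438 and 1969 bases. Divided by the longest transcript instead, a choice made after the values were seen, Tcf12 stood at 20.0 ± 0.737 in cNK and 28.9 ± 1.68 in DN NK, and Tcf3 at 23.3 ± 0.616 and 18.4 ± 1.01. On that scale Tcf12 was below Tcf3 in each cNK library and above it in each DN NK library, with ratios of Tcf12 over Tcf3 averaging 0.858 and 1.58. The E protein sum then was 47.5 ± 0.992 in cNK and 51.3 ± 1.94 in DN NK, and the Id over E ratio 2.70 ± 0.463 and 1.94 ± 0.0938. On that scale the E protein sums did not overlap, at 46.4 to 48.2 in cNK and 49.1 to 52.7 in DN NK. The likeness of the sums therefore holds only for the deposited FPKM. The length cancels in the change of a single gene between the groups, and the files give no level for single transcripts, so E12 and E47 cannot be told apart.

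**Figure D3:**
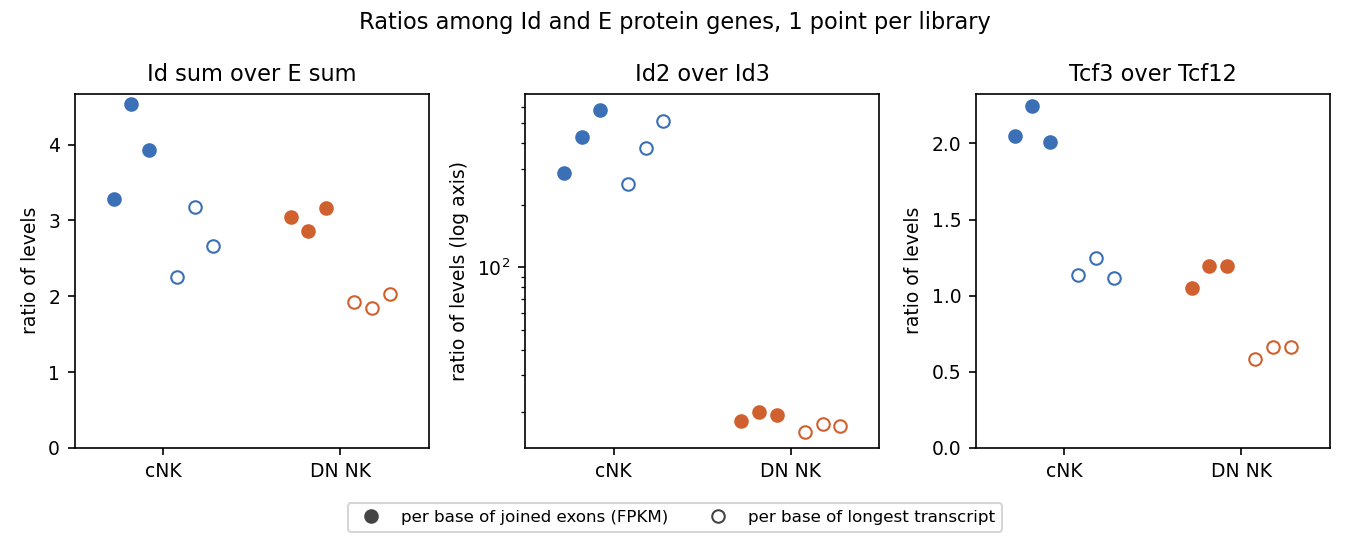
Ratios of levels in each library for the Id sum over the E sum, Id2 over Id3 (log axis) and Tcf3 over Tcf12, with levels per base of joined exons as deposited (filled) or per base of the longest transcript (open). DN NK lies below cNK in all 3 ratios on either scale, and Tcf3 over Tcf12 crosses 1 between the groups only on the second.

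In order of FPKM, cNK held Id2, Tcf3, Tcf12, Tcf4, Id1 and Id3, and DN NK held Id2, Tcf3, Tcf12, Id3, Tcf4 and Id1. Id3, last in cNK, stood above Tcf4 and Id1 in DN NK. At the foot of the cNK order, Id1 at 0.306 to 0.358 FPKM and Id3 at 0.178 to 0.302 FPKM lay close together, on 8.24 to 15.2 read pairs a library. Per base of the longest transcript these swapped, with Id3 at 0.353 ± 0.0922 and Id1 at 0.335 ± 0.0266 and overlapping libraries. On that scale Tcf12 also came before Tcf3 in DN NK, and Id3 at 5.52 ± 0.330 remained above Tcf4 at 4.05 ± 0.263.

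In the deposited coordinates on GRCm38, Id1 spans chr2:152736251-152737410 and Id3 chr4:136143497-136145755, both on the plus strand. Id2 spans chr12:25093799-25097140, Tcf3 chr10:80409514-80433647 and Tcf12 chr9:71842688-72111871, all on the minus strand, and Tcf4 lies on chromosome 18. The Id genes are short, with 2 or 3 listed transcripts each, whereas Tcf3, Tcf12 and Tcf4 have 14, 21 and 39. The kit does not mark strand, but no exon of another annotated gene shares a base with an exon of any of the 6. The pseudogene Rpl15-ps2, inside an intron of Tcf12 on the other strand, was at 21.0 FPKM in cNK and 18.1 in DN NK.

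Genes around the Id and E proteins were read from 5 lists with 66 entries, of which 61 were listed and 44 tested. In DN NK 26 were higher, 8 were lower and 10 did not pass. Beside these counts and those of each list below stand all tested rows, of which 30.8% were higher and 30.9% lower. The median log2 fold change over all tested rows was -0.016.

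Of 5 tested relatives with a helix-loop-helix, 1 was higher and 2 were lower (median log2 fold change 0.12). Hes6, a factor of the Hairy and enhancer of split group, fell from 17.4 ± 0.652 to 10.4 ± 0.942 FPKM (log2 fold change -0.68, adjusted p = 7.97e-05). Bhlhe41 fell by 0.49 on the log2 scale. Bhlhe40, a repressor and the most abundant of them, was higher by 0.18 (adjusted p = 0.0441) with overlapping groups, and did not pass without a filter. Lyl1, an E protein partner of blood progenitors, lay under the filter at 0.0203, 0 and 0.0216 FPKM in cNK and 1.12, 0.807 and 0.552 FPKM in DN NK.

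Of 8 tested cofactors and adaptors of E proteins, 4 were higher and 1 was lower (median 0.16). The lower gene was Cbfa2t3, which encodes the corepressor ETO2, at 3.49 ± 0.278 against 6.26 ± 0.523 FPKM (log2 fold change -0.78, adjusted p = 4.82e-05). Its relative Cbfa2t2 rose 1.40-fold. Crebbp, which encodes the coactivator CBP, rose 1.54-fold to 16.2 ± 0.593 FPKM, and Ldb1, a scaffold of E protein complexes, 1.19-fold. Ep300, the gene of the coactivator p300, did not pass (log2 fold change 0.092).

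All 6 tested genes of Id and E protein turnover passed, 3 in each direction (median 0.07). Asb2, the substrate-binding part of a ubiquitin ligase known to act on E2A, gave the largest change. It met the filter only through DN NK, at 0.706, 0.636 and 0.765 FPKM in cNK and 17.6, 23.8 and 20.9 FPKM in DN NK, without overlap, a 30.6-fold rise (log2 fold change 4.94, SE 0.13, adjusted p = 1.66e-07). Huwe1, another ubiquitin ligase, rose 1.29-fold. Stub1 and Cdc20 fell by 0.46 and 0.43 on the log2 scale, and Usp1, which removes ubiquitin from Id proteins, fell by 0.17.

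Of 13 tested genes known to induce Id genes, 8 were higher and 1 was lower (median 0.42). Egr2 and Egr3, which act downstream of antigen receptors to induce Id3, rose 2.09-fold and 2.17-fold, Egr2 from 2.46 ± 0.251 to 4.94 ± 0.328 FPKM. Tox, a factor of early ILC development, rose 2.59-fold and Stat5a, a factor activated by cytokine receptors, 2.04-fold. Nfil3, which acts before Id2 in NK development, did not pass (log2 fold change -0.090), but was called lower in the fit without a filter. Smad1, a mediator of BMP signals, was the lower gene at -0.27 (adjusted p = 0.0474).

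Of 12 tested genes known as E protein targets in lymphocytes, 10 were higher and 1 was lower (median 0.80). The filter favours genes that rose, since 9 of the 17 listed targets reached a mean of 1 FPKM in cNK and 12 in DN NK. Without a filter 13 of the 17 were higher and 1 was lower, against 15.3% and 16.0% of 27763 rows. Il7r, the interleukin-7 receptor chain gene, was at 2.81, 2.72 and 2.60 FPKM in cNK and 63.8, 68.8 and 64.0 in DN NK. Cd4, Pax5 and Cd79a met the filter only through DN NK. Cd4 was at 3.51 ± 0.290 against 0.0160 ± 0.0202 FPKM, Pax5 at 2.31 ± 0.734 against 0.0449 ± 0.0151 and Cd79a at 11.8 ± 1.33 against 0.292 ± 0.0328. These last 3 also stand in the marker lists of T or B cells. Of the 9 targets in no marker list, 7 were higher, 1 was lower and 1 did not pass (median 0.58). The marker lists are short, so absence from them does not set a gene apart from other cell types. Tcf7, which encodes TCF-1, rose from 126 ± 3.71 to 196 ± 3.94 FPKM, and Socs3, an inhibitor of cytokine signals, rose 1.20-fold. Lef1, the relative of Tcf7, was the lower gene at -0.85 (adjusted p = 9.18e-06).

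**Figure D4:**
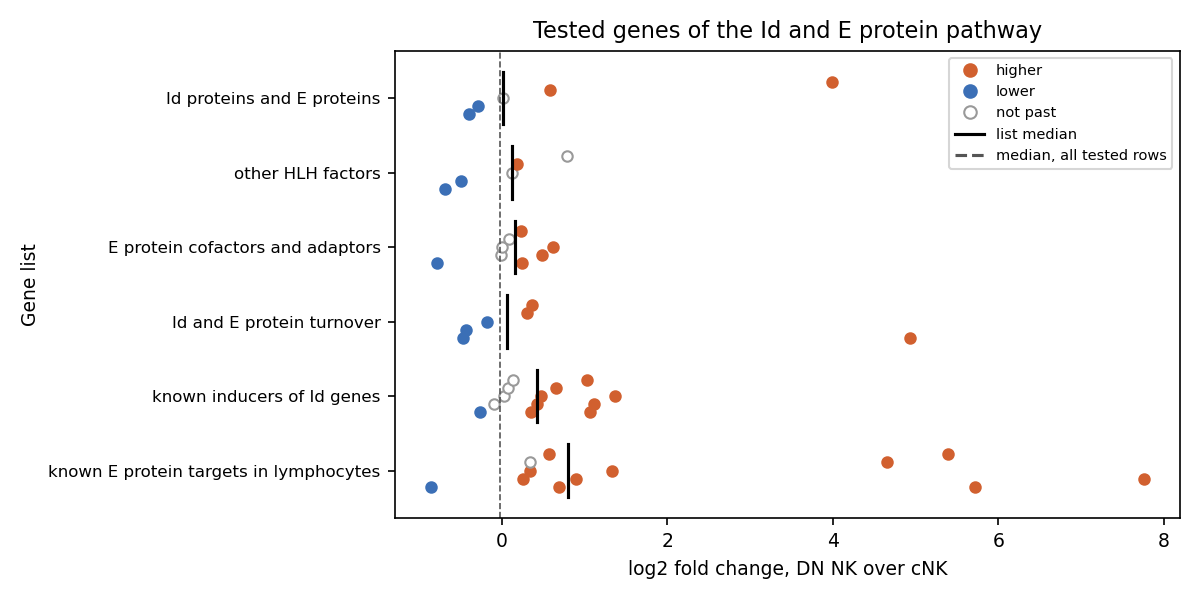
Log2 fold changes, DN NK over cNK, of the tested genes of the 6 members' list and the 5 pathway lists; colour gives the call, black bars the list medians and the dashed line the median of all tested rows. The list medians lie between 0.014 and 0.80, and the widest single changes are Id3, Asb2 and 4 of the E protein targets.

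The pattern of Id3 over the 6 libraries was compared with that of every other tested row by the root mean square difference of log2(FPKM + 1) after centring. The nearest were Bmp2 (0.0362), Fam124b (0.0527) and Togaram2 (0.0547). Each met the filter only through DN NK. Their edgeR fold changes differed widely, at 122, 10.1 and 165 against 15.9 for Id3, since adding 1 to FPKM compresses the changes of low genes. Bmp2, which encodes a BMP ligand, was at 0.0310, 0.0428 and 0 FPKM in cNK and 3.41, 2.85 and 3.10 FPKM in DN NK. Fam124b was at 0.471 ± 0.0495 and 4.57 ± 0.106 FPKM, and Togaram2 at 0.0189 ± 0.00652 and 3.22 ± 0.287 FPKM. With 2 groups this likeness rests mainly on the gap between them. No other member that passed changed by 2-fold, so none was matched in this way.

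Markers of cells that are known to express these genes also differed between the groups. All 10 B cell markers were higher in DN NK in the fit without a filter, and their summed level was 2.61 to 3.08 FPKM in cNK and 53.8, 43.4 and 40.3 FPKM in DN NK 1, 2 and 3. The marker counts here are from that fit, in which 15.3% of 27763 rows were higher and 16.0% lower. In the same fit, 12 of 14 T cell markers were higher and 1 was lower, with summed levels of 533 to 551 against 667 to 707 FPKM. Most of these sums was Trbc1 and Trbc2, and Trbc2 was at 131 ± 4.15 and 174 ± 6.86 FPKM. Cd3d was at 4.54 ± 0.358 FPKM in cNK and 38.5 ± 0.873 in DN NK, and Cd3g at 3.39 ± 0.133 and 17.3 ± 0.750. Cd3e was lower, at 0.0218 ± 0.0214 and 0.846 ± 0.122 FPKM, and Tcrg-C2 was listed at 0 in cNK. The lower T cell marker was Trdc, at 36.5 ± 0.533 FPKM in cNK and 10.9 ± 0.554 in DN NK. Of 7 markers of ILC2 and ILC3, 4 were higher, and their sums were 14.2 to 16.5 and 22.6 to 24.9 FPKM, with Il22 listed at 0 in cNK. Most of this was Gata3, at 15.1 ± 1.15 and 16.9 ± 0.230 FPKM. Gata3 was higher in the main edgeR fit (log2 fold change 0.22, adjusted p = 0.0109) but did not pass without a filter. The 4 listed plasma cell markers were higher, with sums of 92.7 to 96.4 and 131 to 178 FPKM. Those sums were nearly all Ighm, which B cells also express and which rose 1.60-fold, while Jchain was at 0.460 ± 0.138 and 4.86 ± 1.66 FPKM. Of 8 myeloid markers 1, S100a9, was higher and 1, Itgax, was lower. Itgax, which NK cells also express, made up nearly all of the sums of 183 to 196 and 121 to 132 FPKM, at 188 ± 6.93 and 124 ± 6.02 FPKM. Lyz2 was at 0.337 ± 0.232 and 0.988 ± 0.199 FPKM, and S100a8 and S100a9 were listed at 0 in cNK. In bulk samples more cells of a type and more RNA per cell cannot be told apart, and the part of these cells in the levels of Id3, Tcf12, Tcf3 and the E protein targets was not tested. For Tcf4, the listed markers of plasmacytoid dendritic cells summed to 7.01 to 9.39 FPKM in cNK and 6.14 to 7.59 in DN NK. Among these markers, Siglech was at 0.00766 ± 0.0133 and 0.0117 ± 0.0117 FPKM. Of 8 listed, 2 were higher and 1 was lower, so the like sums hold opposite changes. Cox6a2, nearly all of the cNK sum, was at 7.47 ± 1.40 FPKM in cNK and 3.18 ± 0.507 in DN NK. Spib, also known in B cells, was at 0.0534 ± 0.0266 and 2.46 ± 0.525 FPKM, and Pacsin1 at 0.0257 ± 0.0158 and 0.941 ± 0.185 FPKM.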

How the data were processed

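Poly(A) RNA was sequenced as paired reads of 150 bases, per the labels' protocols. Tools named in the submitters' processing notes are StringTie, HISAT and edgeR, and the build is GRCm38 (mm10), without versions or settings. The authors deposited an FPKM value and a count per gene row and library. The deposited counts are estimated counts: they follow FPKM times length, and 1 read pair is worth about 3.76 of them, so read pairs given here are approximate.

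Main test: edgeR 4.0.16 in R 4.3.3, quasi-likelihood, robust, TMM, group as the only term, all 6 libraries, 2-sided. Standard errors are the log2 fold change divided by the root of F. FPKM means and SDs are of deposited values. Alternatives used limma 3.58.1 and DESeq2 1.42.0. The script was tested on simulated data. Members, lists and tests were chosen with earlier results of these data known. Named genes were the members, up to 4 of each pathway list ranked by size of change among those past the threshold, the 3 rows most like a member changed by at least 2-fold, and genes for checks of labels and cell types. Ep300, Usp1, Lyl1, Nfil3, Smad1, Tcf7, Socs3, Lef1 and Rpl15-ps2 were named after their values were seen.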

Additional observations from a re-analysis of the deposited data

How the results depend on the processing

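Every alternative that could test Id2, Id3, Tcf3 and Tcf12 kept the direction and the pass; ranges of the log2 fold change were -0.49 to -0.28, 1.98 to 4.15, -0.37 to -0.26 and 0.48 to 0.64. With a mean of at least 5 FPKM, Id3, Tcf4 and Id1 were not tested. Tcf4 turned to -0.072 with upper quartile scaling (which moved the median of all rows to -0.10), to -0.020 and -0.026 with limma on log2(FPKM + 1) and log2(FPKM + 0.1), to -0.051 without a filter and to -0.042 with edgeR's filterByExpr, and never passed; the cause was not tested. Leaving out each replicate gave Tcf4 -0.13 to 0.19, Id1 0.15 to 0.49, Id2 -0.49 to -0.28 and Id3 3.78 to 4.15. With a mean of at least 5 FPKM, 2278 rows were higher and 2336 lower, since fewer were tested, against 3602 and 3613. Upper quartile scaling gave 3104 higher and 4373 lower, and limma 3268 and 4098 on log2(FPKM + 1) and 3251 and 4079 on log2(FPKM + 0.1). Lower genes of the pathway lists numbered 8 in the main fit and 4 under the 5 FPKM filter. Their number was 9 under upper quartile scaling and under either limma fit. It was 5 to 7 when a replicate was left out (5 without DN NK replicate 3). Per base of the longest transcript, a choice made after the values were seen, Id over E was 2.70 in cNK and 1.94 in DN NK, Tcf3 over Tcf12 1.17 and 0.637, and Id2 over Id3 in DN NK 16.9.

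Same-numbered libraries deviated together with weak correlations of 0.106, 0.0906 and 0.152, and other pairs with -0.132 to 0.0276. Each library thus correlated best with its own number. Values were centred within each group, so these correlations are not independent of one another, and pairing was not tested. The labels do not say what a shared number marks, so the main fit left it out and a replicate block was an alternative. With the replicate block, 3585 rows were higher and 3637 lower, Id2 lay at -0.38, Id3 at 4.01, Tcf3 at -0.29 and Tcf12 at 0.59, and no call of a member changed. Depth limits Id1 and the cNK level of Id3, which rest on 8.24 to 16.0 read pairs a library.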
